A study of Mus musculus and Mus musculus
Oryx dammah with 30 samples.

Results

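The 10 genes described here, Cnot1, Cnot3, Cnot7, Cnot6l, Btg4, Zfp36l2, Pabpn1l, Pabpc1l, Cpeb1 and Dazl, act in the removal of maternal mRNA and in the control of its poly(A) tail. They were taken by gene name and all 10 were found in each of 3 mouse tables, among 53023 genes in the four-cell and the replication table and 55364 in the two-cell table. RNA-seq was performed on pools of NT embryos, in which a pair of C2C12 cells, a myoblast line from a C3H mouse, had been fused to a BDF1 (C57BL/6 × DBA/2) embryo arrested with 0.1 μg/mL demecolcine, and the embryos were then cultured for 24 h. Demecolcine, the donor line and the embryo strain were common to all groups. The groups were four-cell NT embryos given (+) or not given (−) α-amanitin, an inhibitor of RNA polymerase II, from 46 hpi to 70 hpi (3 libraries each, 3 embryos per pool); four-cell NT embryos named D and DR in the experiment on DNA replication, both without α-amanitin (3 libraries each, 4 embryos per pool); and two-cell NT embryos with or without α-amanitin (6 libraries each, 5 embryos per pool). The two-cell libraries came from transfers that began at 21 hpi or 30 hpi, but the table does not say which is which. It names the libraries in 2 sets, NT and Am, and R and RAm. Libraries with Am in the name were taken as α-amanitin (+) and those without it as (−), and each set holds 3 of each. The letters D and DR were likewise not tied to replication by the sample labels, so no direction with respect to replication is given.

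Maternal mRNA is stored in the oocyte with short poly(A) tails, is activated by cytoplasmic polyadenylation, and is cleared in waves around fertilization and zygotic genome activation. The CCR4-NOT complex shortens the tail: Cnot1 is its scaffold, Cnot3 a regulatory subunit, and Cnot7 and Cnot6l are catalytic deadenylases of different families. Btg4 bridges the deadenylase to the translating mRNA, Zfp36l2 brings it to AU-rich elements, and Pabpn1l binds poly(A) and recruits Btg4. Pabpc1l is the embryonic cytoplasmic poly(A)-binding protein, Cpeb1 binds the cytoplasmic polyadenylation element (CPE), and Dazl promotes translation of maternal mRNA in the maturing oocyte. The libraries were made from polyadenylated RNA, so that fewer molecules and shorter tails cannot be told apart in the values.

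The ends of the members' own mRNAs are shown because the group acts on such ends. For each member the last 100 bases of its principal GENCODE vM21 transcript (mm10) were searched, on the transcript strand only, for a poly(A) signal (AATAAA or, in its common variant, ATTAAA) and for a CPE (TTTTAT, or with 1 more base TTTTAAT). A CPE of the first form and the variant signal can overlap. A poly(A) signal was found in 8 of 10 members, against 82.3% of 9803 genes tested in the two-cell table with a 3′ UTR of at least that length. A CPE was found in 4 of 10 members (Cnot7, Cnot3, Btg4 and Cnot1), against 19.8% of those genes. In Cnot7 the CPE starts 9 bases before the poly(A) signal, in Cnot3 it starts 9 bases after it, and in Btg4 and Cnot1 it lies 67 and 64 bases from the annotated end with no poly(A) signal in the window. The 30-base sites below, written 5′ to 3′ with the motifs in capitals, belong to Cnot7, Cnot6l and Dazl, which were lower without α-amanitin in the two-cell FPKM, to Zfp36l2, which was higher, and to Cnot3. A match is a description of the annotated end, which may not be the end used in embryos.
Cnot7, chr8:40493036-40493065, minus strand: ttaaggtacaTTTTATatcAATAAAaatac
Cnot6l, chr5:96070340-96070369, minus strand: ttccctgtaggcAATAAAtggccattttgc
Dazl, chr17:50279400-50279429, minus strand: cttgtatacacgAATAAAacctttttttca
Zfp36l2, chr17:84183931-84183960, minus strand: tttgtagtttcccccAATAAAattttttgg
Cnot3, chr7:3661075-3661104, plus strand: atttatgAATAAAtagTTTTATatgacggc

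Values are FPKM as deposited, that is, fragments scaled to exon length and to library size, so they are shares of a library. Reads were not separated by strain, so a transcript may come from the embryo or from the donor. In the four-cell table whole reads could be recovered, 1829781 to 2278397 per (−) library and 1136771 to 3101002 per (+) library, and the depth of the other tables is unknown. ERCC spike-in RNA took 2.38% to 6.26% of the signal in the two-cell (−) libraries and 6.54% to 11.3% in the (+) libraries. The pseudogene Gm10925, the feature with the most signal in the two-cell table, took 3.56% to 7.50% without and 9.35% to 21.6% with α-amanitin. The part of this shift in composition in the results below was not tested beyond the scaling to spike-ins and by median of ratios given with them. In the R and RAm set the groups stood far apart (correlation of log2 values between groups 0.450 to 0.534 and within groups 0.885 to 0.960), and the NT and Am set less so (0.845 to 0.886 between groups). All 6 embryo markers (Nlrp5, Ooep, Tle6, Padi6, Khdc3 and Zbed3) averaged at least 1 FPKM in each group. Of 10 donor myoblast markers 1 to 4 did, and only Pax7 was at 0 in every library. The summed level of the donor markers ranged from 1.69 to 257 FPKM in two-cell and from 17.8 to 291 FPKM in four-cell libraries.

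In two-cell NT embryos, transcripts of the deadenylases Cnot7 and Cnot6l, of Btg4 and of Dazl took a smaller share of the library without α-amanitin than with it, and those of Cnot1 and Zfp36l2 a larger share. Of the 8 members that passed the filter (3 or more libraries at or above 1 FPKM), 4 were lower without α-amanitin, where 8.51% of 17196 genes were, and 2 were higher, where 38.9% were (limma on log2(FPKM + 1), Benjamini-Hochberg adjusted p under 0.05). The groups did not overlap for 4 members, against 19.2% of genes. The fit over both sets held no term for the set, so its spread includes the difference between the sets. The median change was −0.85 over the members tested and 0.67 over all genes tested, on the log2 scale as (−) minus (+). In pooled embryos fewer cells carrying a transcript and less of it per cell cannot be told apart.

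**Figure D1:**
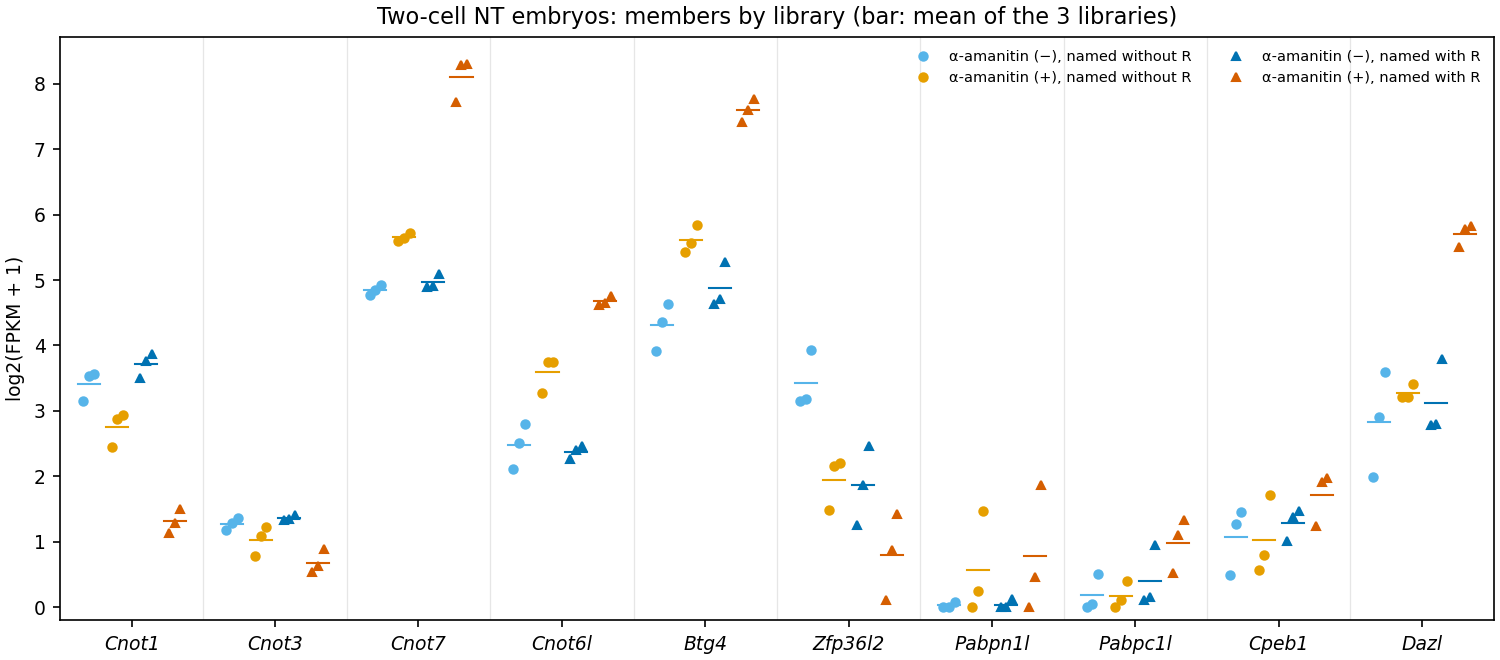
FPKM of the 10 members in the 12 two-cell libraries, on a log2(FPKM + 1) axis, by α-amanitin state and by whether the library name holds R; bars are means of 3 libraries. Cnot7, Cnot6l, Btg4 and Dazl reach their highest values in the α-amanitin (+) libraries named with R, where Cnot1 and Cnot3 are lowest.

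Cnot7 (chr8:40492540-40515847) was measured at 26.3, 29.5 and 27.7 FPKM in NT libraries 1 to 3 and at 49.2, 51.8 and 47.3 in Am libraries 1 to 3. It was measured at 29.1, 33.0 and 28.6 FPKM in R3, r1 and r2 and at 315, 210 and 310 in RAm libraries 1 to 3. Every (+) library was above every (−) library, and the 6 (−) libraries lay within a narrow range in both sets. The (−) minus (+) change was −1.97 ± 0.54 (SE, 6 against 6 libraries, adjusted p = 0.0104) over both sets, −3.14 ± 0.22 (adjusted p = 2.25e-05) in the set with R and −0.81 ± 0.19 (adjusted p = 0.0289) in the set without R, each from limma. Cnot6l (chr5:96070333-96164171), a catalytic subunit of the other deadenylase family, was measured at 4.70, 5.97 and 3.34 FPKM in NT libraries and at 12.4, 12.4 and 8.70 in Am libraries. It was measured at 4.26, 4.50 and 3.81 FPKM in R3, r1 and r2 and at 23.7, 26.0 and 24.1 in RAm libraries. The groups again did not overlap, with a change of −1.71 ± 0.33 (adjusted p = 0.00188) over both sets, −2.30 ± 0.21 (adjusted p = 5.48e-05) with R and −1.11 ± 0.30 (adjusted p = 0.0412) without R. In the set without R, leaving out 1 library often ended these calls: Cnot6l lost it whichever library was left out, and Cnot7 kept it only without NT3 (adjusted p = 0.0261), although the changes stayed between −1.27 and −0.93 for Cnot6l and between −0.85 and −0.77 for Cnot7.

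The scaffold moved the other way. Cnot1 (chr8:95719451-95807464) was measured at 10.5, 10.8 and 7.84 FPKM in NT libraries, 6.68, 6.33 and 4.44 in Am libraries, 10.4, 12.5 and 13.6 in R3, r1 and r2, and 1.44, 1.19 and 1.84 in RAm libraries. All (−) libraries were above all (+) libraries, with a change of 1.53 ± 0.37 (adjusted p = 0.00595) over both sets. The set with R gave 2.40 ± 0.25 (adjusted p = 9.58e-05) and the set without R 0.66 ± 0.28, which did not pass (adjusted p = 0.140). Cnot3 (chr7:3645268-3661109) was low, at 1.26 to 1.65 FPKM in the 6 (−) libraries (median 1.53) and 0.443 to 1.34 in the 6 (+) libraries (median 0.778). Only Am1 among the (+) libraries lay within the range of the (−) libraries, and its change of 0.46 ± 0.21 did not pass over both sets (adjusted p = 0.0752) but did in the set with R (0.68 ± 0.18, adjusted p = 0.00965). In that set Cnot3 passed the filter only through R3, r1 and r2, where it was high, and left the test when any of these was left out, so its call there is no support for a difference.

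Among the adaptors, Btg4 (chr9:51060901-51119875) was measured at 19.5, 14.2 and 23.9 FPKM in NT libraries and at 42.0, 56.4 and 46.3 in Am libraries. It was measured at 25.2, 23.8 and 37.9 FPKM in R3, r1 and r2 and at 170, 217 and 193 in RAm libraries. The lowest (+) library was above the highest (−) library. The change was −2.01 ± 0.49 (adjusted p = 0.00606) over both sets, and Btg4 was the only member past the 4-fold criterion of the study there, as were 1.58% of genes in this direction; it fell short of 4-fold, at −1.97 to −1.78 and still called, without NT1, NT2, RAm1, RAm2 or RAm3. Cnot7, at −1.97, was just short of it, and past it with a pseudocount of 0.1 and without Am1, Am2, Am3 or r1 (−2.23 to −2.01). Within the sets it was −2.72 ± 0.24 (adjusted p = 4.78e-05) with R and −1.30 ± 0.26 (adjusted p = 0.0170) without R, where it held only on leaving out NT2 or NT3 (adjusted p = 0.0491 and 0.00876) and was lost on leaving out any of the other libraries, with changes of −1.47 to −1.11 throughout. Zfp36l2 (chr17:84183931-84187947) was measured at 8.10, 7.89 and 14.3 FPKM in NT libraries, 3.46, 3.59 and 1.80 in Am libraries, 4.51, 2.66 and 1.38 in R3, r1 and r2, and 0.822, 1.68 and 0.0811 in RAm libraries. Its (−) libraries were higher within the set without R, but over both sets the groups overlapped. The change was 1.27 ± 0.47 (adjusted p = 0.0377) over both sets, 1.48 ± 0.35 (adjusted p = 0.0288, lost on leaving out any library but NT3) without R and 1.06 ± 0.42 (adjusted p = 0.0507) with R. The call over both sets was lost on leaving out any of 7 libraries (NT1 to NT3, RAm1 to RAm3 or R3), with changes of 1.01 to 1.31. Pabpn1l (chr8:122619471-122622739) failed the filter: its (−) libraries lay between 0 and 0.0843 FPKM, with 4 of 6 at 0, whereas Am1 gave 1.78 and RAm3 2.64 and the other (+) libraries 0 to 0.380. It did not pass with no filter either (−0.64 ± 0.31, adjusted p = 0.172).

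Of the poly(A)-binding and translation factors, Dazl (chr17:50279395-50293636) differed by set. It was measured at 11.1, 6.53 and 2.97 FPKM in NT libraries and at 8.28, 9.65 and 8.23 in Am libraries, and these overlapped. In R3, r1 and r2 it was measured at 5.95, 5.89 and 12.8 FPKM, all far below the 53.9, 44.6 and 55.8 of the RAm libraries. The change was −1.51 ± 0.56 (adjusted p = 0.0366) over both sets, −2.58 ± 0.32 (adjusted p = 0.000210) with R and −0.44 ± 0.41 (adjusted p = 0.484) without R. The call over both sets was lost on leaving out any of 7 libraries (NT2, NT3, RAm1 to RAm3, R3 or r1), with changes of −1.50 to −1.25. Cpeb1 (chr7:81347026-81455465) lay between 0.409 and 1.78 FPKM (median 1.51) without α-amanitin and between 0.484 and 2.93 (median 1.82) with it, and the groups overlapped (−0.19 ± 0.30, adjusted p = 0.620). Pabpc1l (chr2:164025450-164050538) was near the lower end of detection, at 0 to 0.923 FPKM without and 0 to 1.52 with α-amanitin, and failed the filter.

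The FPKM falls of Cnot7, of Cnot6l, of Btg4 and of Dazl were larger on one alternative scale and did not pass on the other. With median-of-ratios scaling, where the median change over all genes was 0.23, Btg4 was at −2.82 (adjusted p = 0.00689), Cnot7 at −2.78 (adjusted p = 0.0113), Cnot6l at −2.43 (adjusted p = 0.00312) and Dazl at −2.27 (adjusted p = 0.0287), and Cnot1 was higher (0.88, adjusted p = 0.0188), against 14.2% of genes lower and 21.9% higher. With each library scaled by 47 spike-ins, the median change over all genes was 1.49, and Btg4 (−0.63, adjusted p = 0.306), Cnot7 (−0.58, adjusted p = 0.344), Cnot6l (−0.44, adjusted p = 0.308) and Dazl (−0.20, adjusted p = 0.762) no longer passed in limma. The split of all genes into higher and lower moved from 6694 and 1464 in FPKM to 12278 and 281, and to 3770 and 2440 with median-of-ratios scaling. On the spike-in scale Cnot1 (2.63) and Zfp36l2 (2.13) were higher without α-amanitin, as were 71.4% of genes, with Cnot3 (1.20) called too but in the test only through its (−) libraries, since no more than Am1 and Am3 of the (+) libraries reached 1 FPKM, and no member was lower, as were 1.63%. In the set with R alone (50 spike-ins) 2 members stayed lower, Cnot7 at −1.18 ± 0.23 (adjusted p = 0.00121) and Btg4 at −0.77 ± 0.32 (adjusted p = 0.0491), against 5.45% of genes. Cnot6l (−0.52, adjusted p = 0.0631) and Dazl (−0.71, adjusted p = 0.0931) did not pass there, and Cpeb1 was higher (0.83, adjusted p = 0.0198), as were Cnot1 and 80.5% of genes, with Cnot3 and Zfp36l2 called too but in the test only through their (−) libraries (RAm2 alone reached 1 FPKM for Zfp36l2). In the set without R, Cnot1 (1.39, adjusted p = 0.0388, which it did not reach in FPKM) and Zfp36l2 (2.14, adjusted p = 0.00627) were higher, as were 31.5% of genes. Cnot7 was there at 0.0061 ± 0.38, with a 95% confidence interval of −0.83 to 0.84, and no member was lower, as were 0.77% of genes. Relative to the median of all genes, over both sets, Btg4, Cnot7, Cnot6l and Dazl were 2.68, 2.64, 2.38 and 2.18 below it (log2) in FPKM, and 2.12, 2.07, 1.93 and 1.69 below it after spike-in scaling. Scaling moves all genes of a library alike, so these distances can differ between scales only through the added 1. They are therefore no test of the falls on the spike-in scale.

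**Figure D2:**
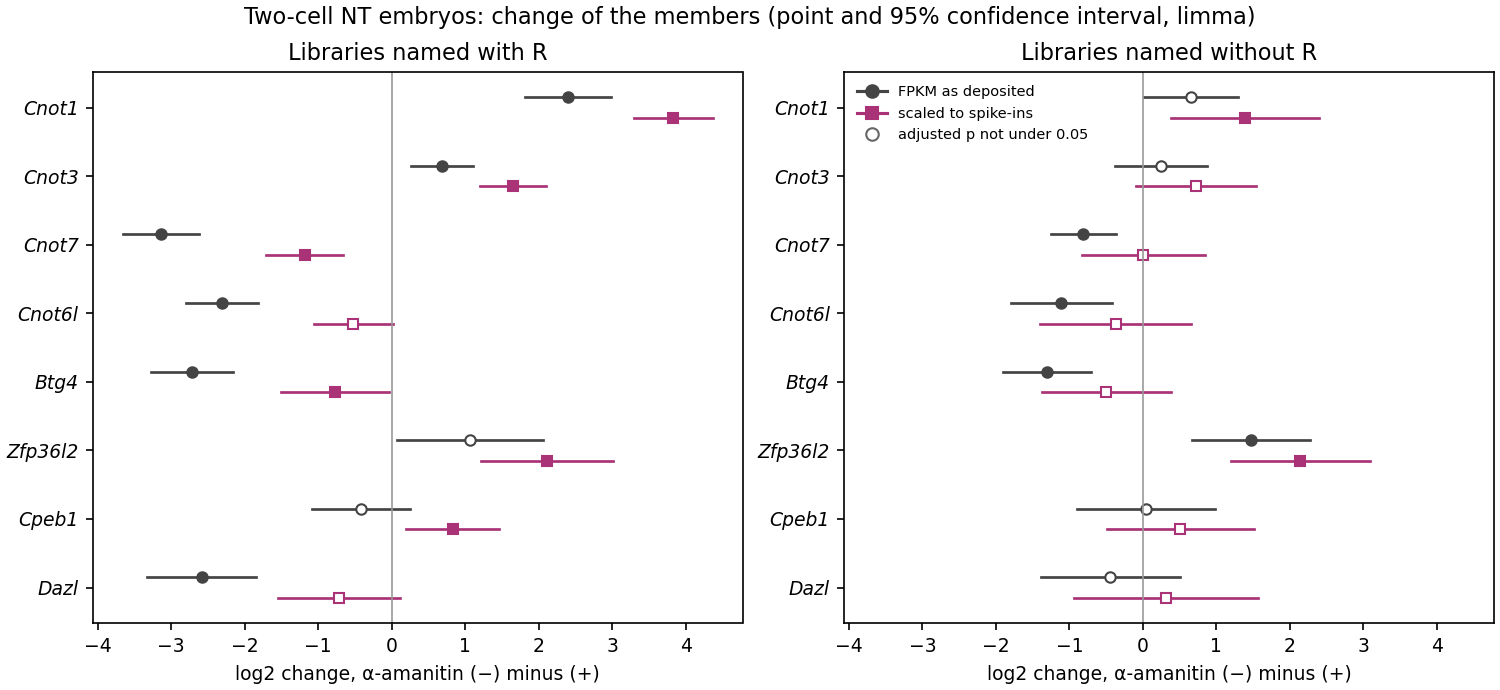
Change of 8 members in two-cell NT embryos as log2 (−) minus (+) α-amanitin, with 95% confidence intervals from limma (3 against 3 libraries), for libraries named with R (left) and without R (right). Grey circles are FPKM as deposited and purple squares are values scaled to spike-ins; open symbols did not pass an adjusted p of 0.05. Cnot7 is at −3.14 in FPKM and −1.18 after scaling on the left, and at −0.81 and 0.0061 on the right.

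Within the set with R 6 of the 8 members in the test passed (Cnot3 only through its high group), against 76.8% of genes, and 6 had groups that did not overlap, against 78.5%. Of these, Cnot7, Btg4, Cnot6l and Dazl were at least 4-fold lower without α-amanitin, as were 6.17% of genes, and Cnot1 was at least 4-fold higher, as were 33% of genes. Within the set without R 4 of 8 members passed, against 16.9% of genes, and none of them was past 4-fold, where 3.29% of genes were higher and 0.49% lower by that much, and 5 did not overlap, against 38% of genes. The 2 sets differed in the size of the change for 5 of the 8 members tested, against 44.5% of genes. The change in the set with R minus that in the set without R was −2.33 ± 0.29 for Cnot7 (adjusted p = 6.17e-05), −2.14 ± 0.54 for Dazl (adjusted p = 0.00692), −1.42 ± 0.36 for Btg4 (adjusted p = 0.00686) and −1.19 ± 0.34 for Cnot6l (adjusted p = 0.0135), by the interaction term in limma. These 4 were among the 8.46% of genes with a lower difference, and Cnot1 (1.74 ± 0.34, adjusted p = 0.00162) was among the 36% with a higher one. Cnot7 and Dazl were past 4-fold in this difference, as were 3.73% of genes in that direction. After spike-in scaling the difference passed for Cnot7 (−1.13, adjusted p = 0.0336) and Cnot1 (2.53, adjusted p = 0.000845), and for Cnot3 (1.00, adjusted p = 0.0471) with the same limit of the filter, against 50.5% of genes higher and 2.71% lower, and did not for Btg4 (−0.21, adjusted p = 0.746), Cnot6l (−0.097, adjusted p = 0.884) and Dazl (−0.97, adjusted p = 0.273). With median-of-ratios scaling it passed for Cnot7, Dazl, Btg4 and Cnot6l, where 16.7% of genes were lower and 19.7% higher.

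Each of the 3 strongest falls in FPKM concerned a gene with relatives in its family, and the ratio to a relative within a library does not depend on the scaling of that library apart from the added 1. The pairs were chosen after the values had been seen, and the ratios are given without a test. Cnot8, the paralog of Cnot7, was measured at 48.1 to 125 FPKM in NT libraries and 48.7 to 52.8 in Am libraries, and at 151 to 153 in R3, r1 and r2 but at 6.77 to 15.7 in RAm libraries. The log2 ratio of Cnot7 to Cnot8 was thus −2.36 to −2.18 in R3, r1 and r2 and 4.22 to 4.86 in RAm libraries, so that Cnot8 was the more abundant of the pair without α-amanitin and Cnot7 with it. In the set without R the same ratio was −2.21 to −0.78 in NT libraries and close to 0 in Am libraries (−0.098 at the lowest). Btg1, an early-response relative of Btg4, was measured at 26.6 to 38.4 FPKM in R3, r1 and r2 and at 0.0602 to 1.10 in RAm libraries. The log2 ratio of Btg4 to Btg1 was −0.83 to 0.099 over the 6 (−) libraries and 1.94 to 7.33 over the 6 (+) libraries, without overlap. Cnot6, the paralog of Cnot6l, had medians of 6.40 FPKM without and 12.1 with α-amanitin, and the ratio of Cnot6l to Cnot6 overlapped between the groups over both sets (−1.46 to 0.018 against −0.067 to 1.29) but not in the set with R (−0.53 to −0.22 against 0.81 to 1.29).

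**Figure D3:**
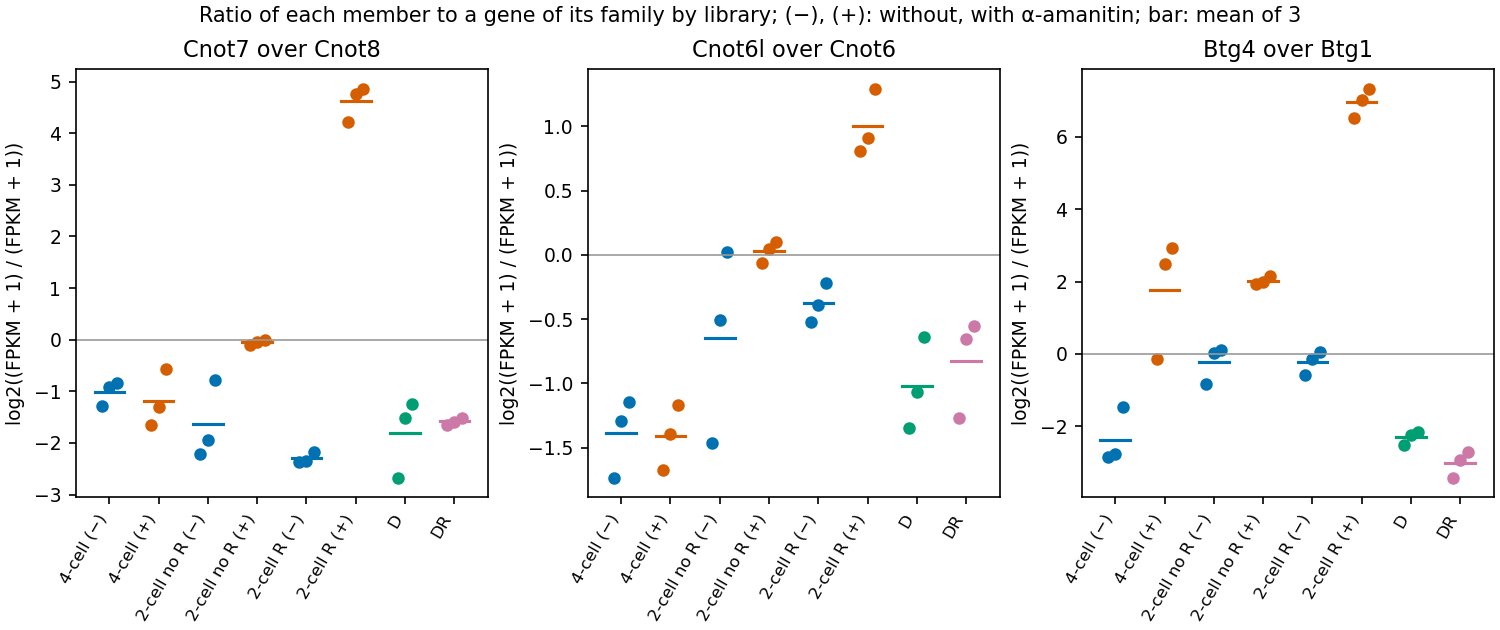
Log2 ratio of FPKM + 1 of each member to a gene of its family in every library, by stage, α-amanitin state and name set; bars are means of 3. The ratios of Cnot7 to Cnot8 and of Btg4 to Btg1 are highest in the 3 two-cell RAm libraries, at 4.22 to 4.86 and 6.53 to 7.33.

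In four-cell NT embryos none of the 5 members that passed the filter was called in either direction by limma, where 11.1% of 9884 genes were higher and 1.13% lower without α-amanitin (6.2% and 0.364% by at least 4-fold) and 2861 genes had an unadjusted p under 0.05. No spike-in was found in the four-cell values, so the spike-in scale given for two-cell embryos could not be applied here. Cnot7 remained the most abundant member, at 53.3, 58.4 and 51.7 FPKM in (−) libraries S15, S17 and S7 and at 61.7, 33.7 and 45.6 in (+) libraries S16, S18 and S8. These overlapped, with a change of 0.25 and a 95% confidence interval of −0.41 to 0.91 (adjusted p = 0.605). Btg4 was measured at 4.98, 6.63 and 4.16 FPKM without and at 9.21, 5.51 and 11.1 with α-amanitin. Its change of −0.59 had an interval of −1.51 to 0.33 (adjusted p = 0.374), and 1 (+) library lay within the range of the (−) libraries. Cnot1 lay between 7.58 and 10.1 FPKM without and between 6.34 and 9.77 with α-amanitin (0.18, adjusted p = 0.773), and Zfp36l2 between 0.497 and 3.25 (4 to 21 reads) and between 0.0914 and 1.43 (1 to 8 reads; 0.61, adjusted p = 0.452). Dazl varied most among the (+) libraries, with 5.26, 0.897 and 26.5 FPKM in S16, S18 and S8 against 4.03, 7.99 and 5.82 in the (−) libraries, so that its change of −0.029 had an interval of −1.96 to 1.90, and leaving out S8 turned it to 0.97.

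The other 5 members rested on few reads in the four-cell libraries. Cnot6l was measured at 2.85, 2.28 and 0.897 FPKM (20 to 67 reads) without α-amanitin and at 0.719, 0.597 and 0.549 (7 to 23 reads) with it. These groups did not overlap, as for 35.2% of genes tested, and its level was higher without α-amanitin here, the opposite side from two-cell embryos, but the change did not pass when fitted with no filter (0.83 ± 0.47, adjusted p = 0.418). Cpeb1 was at 0 to 0.391 FPKM without and at 0.385 to 2.31 with α-amanitin (adjusted p = 0.370), from at most 11 reads in a library. Cnot3 lay at 2 to 13 reads in every library. Pabpn1l had 1 read in all (−) libraries together and Pabpc1l 1 in all (+) libraries, and both were at 0 elsewhere, where 3 reads in a library, taken as the limit that a count of 0 allows, correspond to at most 2.21 FPKM for Pabpn1l and at most 0.969 FPKM for Pabpc1l; such limits cover counting error only.

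**Figure D4:**
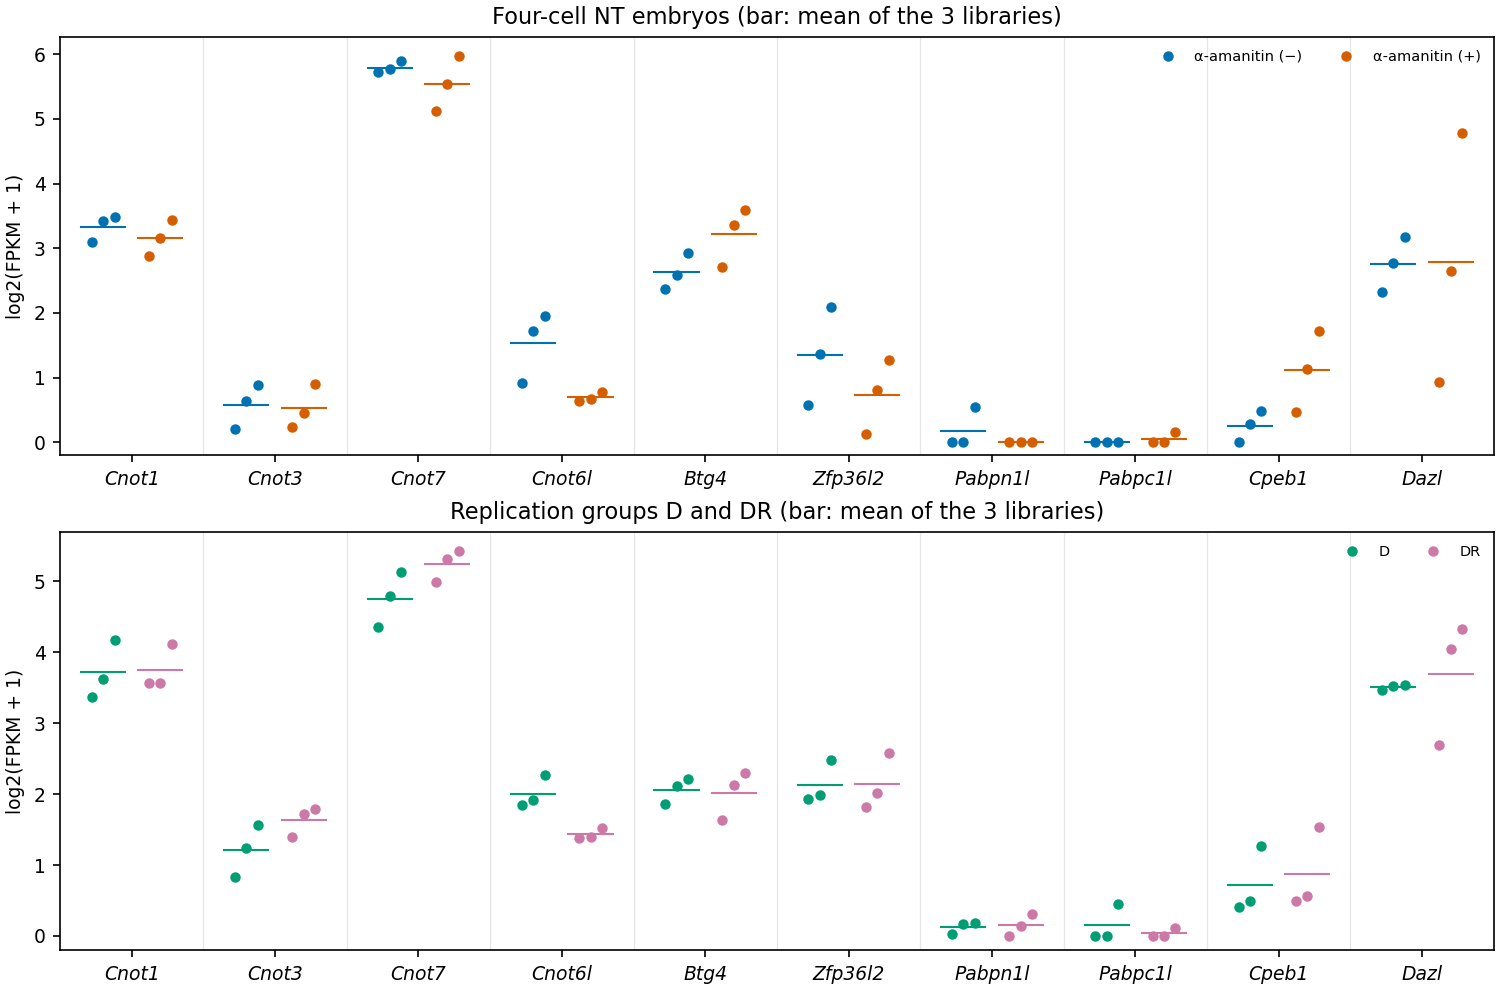
FPKM of the 10 members on a log2(FPKM + 1) axis in the 6 four-cell libraries by α-amanitin state (top) and in the 6 libraries of the replication groups D and DR (bottom); bars are means of 3 libraries. Cnot7 is the highest member in every group, and of the 7 members tested between D and DR only Cnot6l has D and DR libraries that do not overlap.

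Between the replication groups D and DR none of the 7 members that passed the filter was called, nor was any of 14570 genes (limma, 0% called, 897 genes with an unadjusted p under 0.05). Cnot6l was measured at 2.78, 3.80 and 2.59 FPKM in D1, D4 and D5 and at 1.64, 1.87 and 1.60 in DR1 to DR3. All DR libraries were below all D libraries, as happened in either direction for 12.2% of genes, and the change of −0.57 ± 0.26 (DR minus D) did not pass (adjusted p = 0.788). Cnot7 was measured at 26.6, 19.4 and 34.0 FPKM in D and at 42.1, 30.9 and 38.9 in DR, with overlap (0.49, interval −0.16 to 1.14). Btg4 (2.65 to 3.65 and 2.12 to 3.91 FPKM), Cnot1 (9.37 to 17.1 and 10.8 to 16.4) and Zfp36l2 (2.80 to 4.59 and 2.54 to 4.97) overlapped almost entirely. Dazl was alike in the D libraries, at 10.1 to 10.7 FPKM, and spread from 5.47 to 19.1 in DR. Cnot3 had a change of 0.42 (interval −0.28 to 1.12), Cpeb1 lay between 0.325 and 1.91 FPKM over both groups, and Pabpn1l and Pabpc1l stayed under 0.369 FPKM in every library. Spike-in shares varied over 0.0181% to 0.776% of the signal within D alone, and scaling by 19 spike-ins moved the median of all genes from 0.016 to −1.41, with no gene called.

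Levels can be set side by side per length, although the tables were made separately. Cnot7 was the highest member in the (−) embryos of each experiment, with means of 54.5 ± 3.49 FPKM (SD, n = 3) at the four-cell stage and 29.0 ± 2.24 (n = 6) at the two-cell stage, above 86.3% and 84.6% of the genes tested. Btg4 followed at the two-cell stage with 24.1 ± 7.90 FPKM (n = 6), which overlapped Cnot7, but was at 5.26 ± 1.26 (n = 3) at the four-cell stage, below Cnot1 at 9.14 ± 1.37 and near Dazl at 5.94 ± 1.98. In two-cell (+) libraries named with R, Cnot7 (278 ± 59.4 FPKM, n = 3) and Btg4 (193 ± 23.7) were above 99.5% and 99.2% of genes tested, and Dazl (51.4 ± 5.98) above 96.8%. Cnot3, Cpeb1, Pabpn1l and Pabpc1l were the 4 lowest members in D, in four-cell (−) and in two-cell (−) embryos. The FPKM of Dazl used an exon length of 2942 bases in the four-cell and replication tables and 3820 in the two-cell table, so its levels are not on one scale across them. Reads of Cnot1, Cnot3, Cnot7 and Zfp36l2 could include those of genes that overlap their exons (132, 519, 247 and 105 bases), since strand use was not given in the sources used here.

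Of the 75 genes in 6 lists of the wider pathway (deadenylases; BTG/TOB and AU-rich element adaptors; decapping; uridylation and m6A readers; poly(A)-binding proteins; cytoplasmic polyadenylation), 69 were tested at the two-cell stage, of which 22 were higher and 9 lower without α-amanitin (38.9% and 8.51% of all genes), with a median of 0.52 against 0.67 over all genes. Without the members 20 of 61 were higher and 5 lower. Among the highest were Btg1 (2.71, adjusted p = 0.00440), Ythdf2 (2.49, adjusted p = 0.00163), a reader that brings CCR4-NOT to m6A-marked mRNA, Cnot8 (2.28, adjusted p = 0.00598) and Ythdf1 (2.11, adjusted p = 0.000675), and all 4 stayed higher on the spike-in and on the median-of-ratios scale. The 5 lower genes that are not members, named after their values were seen, were Dcp2, the decapping enzyme (−1.62, adjusted p = 0.00281), Pnrc1 (−1.36, adjusted p = 0.0322), Eif4e1b, an oocyte cap-binding protein (−1.29, adjusted p = 0.0497), Paip1 (−1.21, adjusted p = 0.0221) and Ybx2, which packages maternal mRNA (−0.86, adjusted p = 0.0433). Eif4e1b and Ybx2 passed the filter only through (+) libraries, where they were high, so their calls are no support for a difference. After spike-in scaling 49 of the 69 were higher and 0 lower in limma, against 71.4% and 1.63% of all genes, and after median-of-ratios scaling 12 were higher and 14 lower, against 21.9% and 14.2%.

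By list, against 38.9% of all genes higher and 8.51% lower, the deadenylases had 3 higher and 2 lower of 14 tested, the adaptors 6 and 1 of 9, decapping 2 and 2 of 13, uridylation and m6A readers 2 and 0 of 8, poly(A)-binding proteins 1 and 1 of 6, and cytoplasmic polyadenylation 8 and 3 of 19. The last 3 are the member Dazl and Eif4e1b and Ybx2, whose calls are no support for a difference. In the set with R 32 of 65 were higher and 13 lower (60.5% and 16.4% of all genes), among them Btg3 (3.22), another antiproliferative adaptor, and Pabpn1 (2.84), the nuclear poly(A)-binding protein. Spike-in scaling gave 54 higher and 4 lower in that set (80.5% and 5.45% of all genes) and median-of-ratios scaling 17 and 24 (42.6% and 24.9%). In the set without R 7 of 62 were higher and 3 lower (12.7% and 4.18%), the higher ones including Ythdf1 (1.75), Tent2 (1.60), a cytoplasmic poly(A) polymerase, and the AU-rich element-binding genes Zfp36l1 (1.52), Zfp36l2 (1.48) and Zfp36 (1.21). Zfp36l1 and Zfp36 passed the filter only through the NT libraries, where they were high, so their calls are no support for a difference. There the counts were 15 and 0 with spike-ins (31.5% and 0.77% of all genes) and 5 and 4 with median-of-ratios scaling (7.43% and 6.83%).

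In four-cell embryos 7 of 55 pathway genes were higher without α-amanitin and 0 lower (11.1% and 1.13% of all genes), among them Btg1 (3.54), Btg2 (3.40), Ythdf2 (3.02), Ythdf1 (2.37), Ythdf3 (2.21) and Papolg (1.88), a nuclear poly(A) polymerase. Btg1, Btg2, Ythdf1, Ythdf3 and Papolg met the filter only through the (−) libraries, where they were high, with at most 1 (+) library at 1 FPKM or more, and their calls are likewise no support; Ythdf2 reached it in every library. With median-of-ratios scaling 5 of 55 passed, and Ythdf3 (adjusted p = 0.0513) no longer did. Btg1 was measured at 35.9 ± 20.9 FPKM without and 3.64 ± 5.64 with α-amanitin (n = 3 each). In the replication experiment none of 64 was called.

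Markers of the embryo were lower without α-amanitin in two-cell FPKM, the direction of Btg4, Cnot7, Cnot6l and Dazl and the opposite of Cnot1 and Zfp36l2. Their summed level was 22.6 to 64.2 FPKM without and 61.0 to 288 with α-amanitin, and 5 of 6 were lower without it (Nlrp5, Zbed3, Ooep, Tle6 and Padi6), while Khdc3 did not pass (0.42, adjusted p = 0.328). The same 5 passed in the set with R, and 2 of 6 (Nlrp5 and Zbed3) in the set without R. In four-cell embryos none of the 6 was called, and their sum was 68.0 to 277 FPKM without and 38.5 to 79.6 with α-amanitin. It did not overlap between D (46.8 to 82.5 FPKM) and DR (103 to 142), with no marker called. The donor myoblast markers summed to 1.69 to 257 FPKM without and 8.83 to 25.5 with α-amanitin at the two-cell stage, with none of the 3 tested called, and to 17.8 to 87.8 without and 81.0 to 291 with α-amanitin at the four-cell stage, with none of the 3 tested called there either. The cumulus cell markers summed to 1.94 to 2.69 FPKM in NT and 11.7 to 18.2 in Am libraries, with 1 of 2 tested lower without α-amanitin in that set. In the set with R they overlapped, at 1.66 to 5.55 without and 0.519 to 10.9 with α-amanitin, with 1 of 2 tested higher (Tnfaip6, in the test only through the (−) libraries). Of the 7 cumulus markers only Ptx3 was at 0 in all two-cell libraries. The part of these cell types in the changes of the members was not tested.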

How the data were processed

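Pooled NT embryos were lysed, ERCC spike-ins were added, and cDNA was amplified by PCR before library preparation. The four-cell values as deposited hold no spike-ins. Per the labels and the study's methods, the authors trimmed the reads (Trimmomatic, Trim Galore, Cutadapt), mapped them to mm10 with STAR, counted them with featureCounts and deposited FPKM per gene, with the gene lengths used; versions are not given in the sources used here. Columns were mapped to groups by name, and 4 value columns of the replication table were not used. The members and all gene lists were chosen with earlier results of these data known. Genes with at least 1 FPKM in at least 3 libraries were tested two-sided on log2(FPKM + 1) by limma 3.58.1 under R 4.3.3, letting the prior variance follow the mean level, with Benjamini-Hochberg adjustment over all genes tested, within each table. Fold changes on this scale understate those of low genes. All members are named in each comparison; of the pathway lists, genes with an adjusted p under 0.05, at most 8 per comparison by size of change, of which 1 is not reported here; others, named after their values were seen, are given as such. In four-cell libraries 100% of values were whole multiples (within 0.01) of 1 read. The study describes its replicates as independent biological ones; the labels do not say which collection a library came from. The test was checked on simulated data. Alternatives were other pseudocounts, filters and scalings, single name sets, a replicate block, voom on recovered reads, and leaving out each library; those on name sets and voom were added after seeing the data. Same-numbered two-cell libraries correlated at 0.015 to 0.065 in their deviations, so they were not paired.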

Additional observations from a re-analysis of the deposited data

Results flagged for a closer look

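The effect of α-amanitin differed between the 2 sets of two-cell libraries for 5 members, by a test of the difference itself (the interaction term in limma, adjusted over all genes), where 44.5% of all genes also differed (36% higher and 8.46% lower). The change in the libraries named with R minus that in the libraries without R, as log2 (−) minus (+), was −2.33 for Cnot7, −2.14 for Dazl, −1.42 for Btg4, −1.19 for Cnot6l and 1.74 for Cnot1. On the spike-in scale the difference passed for Cnot7 and Cnot1 among these 5 and not for Dazl, Btg4 and Cnot6l. On the median-of-ratios scale it was −3.50 for Cnot7, −3.29 for Dazl, −2.59 for Btg4 and −2.31 for Cnot6l, all passing, against 16.7% of genes lower and 19.7% higher, and 0.90 for Cnot1, which did not pass (adjusted p = 0.0657). The table does not say what the letter R stands for. No single library was flagged by Dixon's criterion in the 20 groups of 6 libraries examined, in which chance flags about 1 in 20 where the 6 are alike. Each group pooled 3 libraries named with R and 3 without R. For Cnot7 with α-amanitin these were at 210 to 315 FPKM with R and at 47.3 to 51.8 without R. Where the sets lie so far apart, the gap between them makes up most of the range. The criterion is then no test of a single library, and no conclusion is drawn from it there.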

How the results depend on the processing

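The two-cell results depended on the scale and on the set of libraries. The counts of genes higher and lower without α-amanitin (6694 and 1464) became 12278 and 281 with spike-in scaling, 12481 and 462 with spike-in scaling and the name set as a term together, 7661 and 1876 with the name set as a term alone, and 3770 and 2440 with median-of-ratios scaling. The set with R alone gave 8698 and 2353, and 11587 and 784 with spike-ins; the set without R gave 1814 and 597, and 4503 and 110. Cpeb1 changed direction to 0.67 with spike-ins (also with the set as a term), 0.83 in the set with R and 0.51 in the set without R on that scale, and 0.044 in the set without R in FPKM, as did Cnot7 (0.0061) and Dazl (0.31) in the set without R with spike-ins. Leaving out 1 library gave 5043 to 7493 genes higher and 1024 to 1723 lower. With no filter Zfp36l2 (adjusted p = 0.0944) and Dazl (0.0881) lost their calls, and Zfp36l2 also with a pseudocount of 0.1 (0.0550) and with median-of-ratios scaling (0.172). With the name set as a term in limma, the calls stayed for Btg4 (adjusted p = 0.000483), Cnot6l (0.000579), Cnot7 (0.00157), Cnot1 (0.00218), Zfp36l2 (0.00456) and Dazl (0.00921). Cnot3 (0.0567) and Cpeb1 (0.579) did not pass with that term.

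The replicate number as a block gave 6027 and 1344 genes and changed no call of a member, and R3 correlated better with RAm2 than with RAm3. No paired analysis was possible because the numbers of the four-cell columns and of D and DR are not shared by at least 2 pairs.

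The four-cell counts (1093 and 112) became 673 and 59 with a pseudocount of 0.1, 275 and 9 with no filter, and 761 and 223 with median-of-ratios scaling. Leaving out 1 library gave 57 to 1362 and 6 to 131; without S7, S15 or S17 there were 57, 79 and 129 higher, and without S18 or S8 511 and 651. Dazl turned to 0.16 with a pseudocount of 0.1 and ranged from −0.96 to 0.97 over libraries left out, and Cnot1 (−0.099) and Cnot7 (−0.060) turned with median-of-ratios scaling. No member was called under any alternative.

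In the replication contrast, median-of-ratios scaling turned Cnot1 (−0.024) and Zfp36l2 (−0.038), and spike-in scaling turned Cnot1 (−1.56), Cnot3 (−1.03), Cnot7 (−1.12), Zfp36l2 (−1.47) and Dazl (−1.32), with the median of all genes at −1.41. Over libraries left out, Btg4 ranged from −0.18 to 0.15, Cnot1 from −0.16 to 0.25, Zfp36l2 from −0.21 to 0.18 and Dazl from −0.14 to 0.68. Causes of these shifts were not tested. edgeR and DESeq2 on recovered reads were not run, since the tables hold FPKM and reads could be recovered in the four-cell table only, where voom gave 1105 and 79 genes. Few reads limit Cnot3, Cnot6l, Zfp36l2, Cpeb1, Pabpn1l and Pabpc1l in the four-cell libraries, and for the other tables depth is unknown.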
